A study of Mus musculus with 12 samples.

Results

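Oxidative phosphorylation subunit genes encode the protein parts of the mitochondrial respiratory chain and of the ATP synthase. They were chosen by gene symbol, as the *Nduf*, *Sdh*, *Uqcr*, *Cox4* to *Cox8*, *Atp5* and protein-coding *mt-* genes, leaving out pseudogenes, *Ndufaf* assembly factors and the c subunit genes *Atp5g1* to *Atp5g3*. Of 52459 genes listed, 94 symbols matched, and 86 of them reached a sum of 120 counts over the 12 libraries. These 86 genes comprised 79 encoded in the nucleus and 7 in mitochondrial DNA (mtDNA). All 86 passed the filter on low counts in both brain areas. The other 8 did not reach the sum: *Cox7b2* had 115 counts, *mt-Co2* had 2 and *mt-Co3* had 1, while *Cox8c*, *mt-Atp6*, *mt-Atp8*, *mt-Nd3* and *mt-Nd4l* had 0.

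Bulk RNA-seq was performed on 2 parts of the brain, the cerebellum (Cb) and the combined forebrain/midbrain (F/M), from males at 4 months of age. The mutant (T) was the *Tpp1*-/- mouse, a gene-targeted loss of *Tpp1* that models late infantile neuronal ceroid lipofuscinosis. The controls (N) were wild-type male siblings from the same heterozygous crosses. The 4 groups, Cb-N, Cb-T, F/M-N and F/M-T, had 3 libraries each, from poly(A)-selected, strand-marking, single-end 50-nucleotide sequencing. Library totals ranged from 21428379 to 24458189 counts, so the limit set by 3 counts lay between 0.122 and 0.139 CPM (counts scaled to library size). The disruption is carried by all cells, and the values average over all cell types of an area. A lower share of a cell type and less RNA per cell therefore cannot be told apart. *Tpp1* itself was at 88.1 to 114 CPM in the N libraries and at 21.7 to 31.4 CPM in the T libraries, and no library went against its label.

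The respiratory chain passes electrons from NADH (complex I) and succinate (complex II) through complex III to complex IV, which reduces oxygen. Complexes I, III and IV pump protons across the inner mitochondrial membrane, and complex V uses the gradient to make ATP. Complex II is entirely nuclear-encoded, whereas the others combine nuclear-encoded subunits with a few subunits translated inside mitochondria. Neurons rely heavily on this pathway, and storage material in several forms of this disease holds a subunit of complex V. Several complex IV subunits exist as isoform pairs, one broadly expressed and one known from heart and skeletal muscle or from testis.

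Many of these genes have CpG-rich promoters read by NRF1, ETS-family factors and YY1. Sequence 250 bases before to 50 after the annotated start was found in RefSeq (GRCm38.p6) for 62 of the 79 nuclear-encoded genes. Both strands were searched, and the first window listed for each gene was used. The NRF1 letters GCGCANGCG, where N is any base, were in 17 of the 62 windows (27.4%), against 6.47% of 27025 promoters. The ETS letters CCGGAAG were in 15 (24.2%, against 9.12%), and the YY1 letters AAGATGGCG in 6 (9.68%, against 1.49%). The TATA box letters TATAAA were in 6 (9.68%, against 14.2%), CCAAT was in 26 (41.9%, against 37.9%), and the ERR letters TCAAGGTCA were in 1 (1.61%, against 0.407%). The median window held 19 CpG, against 7 over all promoters. No 2 kinds of motif overlapped in the windows below, and a match is a description of the letters only. The windows are shown for *Cox6a1* (chr5:115348909-115349208, minus strand) and *Ndufb4* (chr16:37654319-37654618, minus strand), which hold NRF1 letters. That of the muscle-type gene *Cox8b* (chr7:140900397-140900696, minus strand), which rose most in F/M, holds 2 CpG and a TATA box match. Capitals mark every motif match.
Cox6a1: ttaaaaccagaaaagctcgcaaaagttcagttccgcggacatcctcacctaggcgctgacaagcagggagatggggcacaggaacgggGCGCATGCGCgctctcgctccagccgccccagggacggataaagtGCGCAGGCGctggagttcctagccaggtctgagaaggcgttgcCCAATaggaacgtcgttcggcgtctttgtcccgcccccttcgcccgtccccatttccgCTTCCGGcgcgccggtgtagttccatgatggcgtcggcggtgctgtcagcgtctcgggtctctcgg
Ndufb4: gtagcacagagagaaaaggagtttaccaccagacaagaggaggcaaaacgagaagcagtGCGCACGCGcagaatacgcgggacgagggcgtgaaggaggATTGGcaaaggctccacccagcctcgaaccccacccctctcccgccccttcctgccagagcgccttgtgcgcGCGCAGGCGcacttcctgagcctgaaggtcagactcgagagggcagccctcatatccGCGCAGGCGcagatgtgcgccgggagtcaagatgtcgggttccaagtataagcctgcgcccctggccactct
Cox8b: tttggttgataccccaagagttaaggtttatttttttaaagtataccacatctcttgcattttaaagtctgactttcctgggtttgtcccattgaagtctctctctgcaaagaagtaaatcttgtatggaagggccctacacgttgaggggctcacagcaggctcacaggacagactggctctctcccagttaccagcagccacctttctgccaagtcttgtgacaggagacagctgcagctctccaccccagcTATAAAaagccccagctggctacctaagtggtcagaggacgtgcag

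In Cb, 66 of the 86 genes were higher in T and 4 were lower at a false discovery rate (FDR) below 0.1, whatever the size of the change. Over all 16382 genes tested the shares were 29.8% higher and 27.9% lower. The median log2 fold change of the 86 genes was 0.16 (1.114-fold), against 0.01 over all genes tested. In F/M, 45 were higher and 1 was lower, against 12.8% and 14.4% of 16665 genes, with a median of 0.12 (1.09-fold) against 0.01. The increases were small and shared by most members: 79 log2 fold changes were above 0 in Cb, 81 in F/M and 76 in both. At least 1.5-fold changes, the limit of a differentially expressed gene (DEG) in the study, numbered 2 higher (*Cox6a2* and *Cox8b*) and 0 lower in Cb, against 8.54% and 2.66% of all genes. In F/M they numbered 1 higher (*Cox8b*) and 1 lower (*Cox6b2*), against 2.63% and 0.858%.

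Libraries did not overlap for 56 genes above and 5 below N in Cb, against 29% and 27.5% of all genes. In F/M this held for 25 above and 1 below, against 12.4% and 25%. These counts use CPM scaled over all 12 libraries, whereas the test is scaled within the area. In both areas 41 genes were higher, against 9.42% of 15706 genes tested in both, and 1, *Cox6b2*, was lower, against 9.77%. No gene was called in opposite directions. Another 25 genes passed the test as higher in Cb but not in F/M, and 4 in F/M but not in Cb. As lower in Cb but not in F/M, 3 passed. The shares of all genes called in a single area were not computed, so these counts are not read further. Over all genes tested, 29.8% were higher in Cb and 12.8% in F/M.

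**Figure D1:**
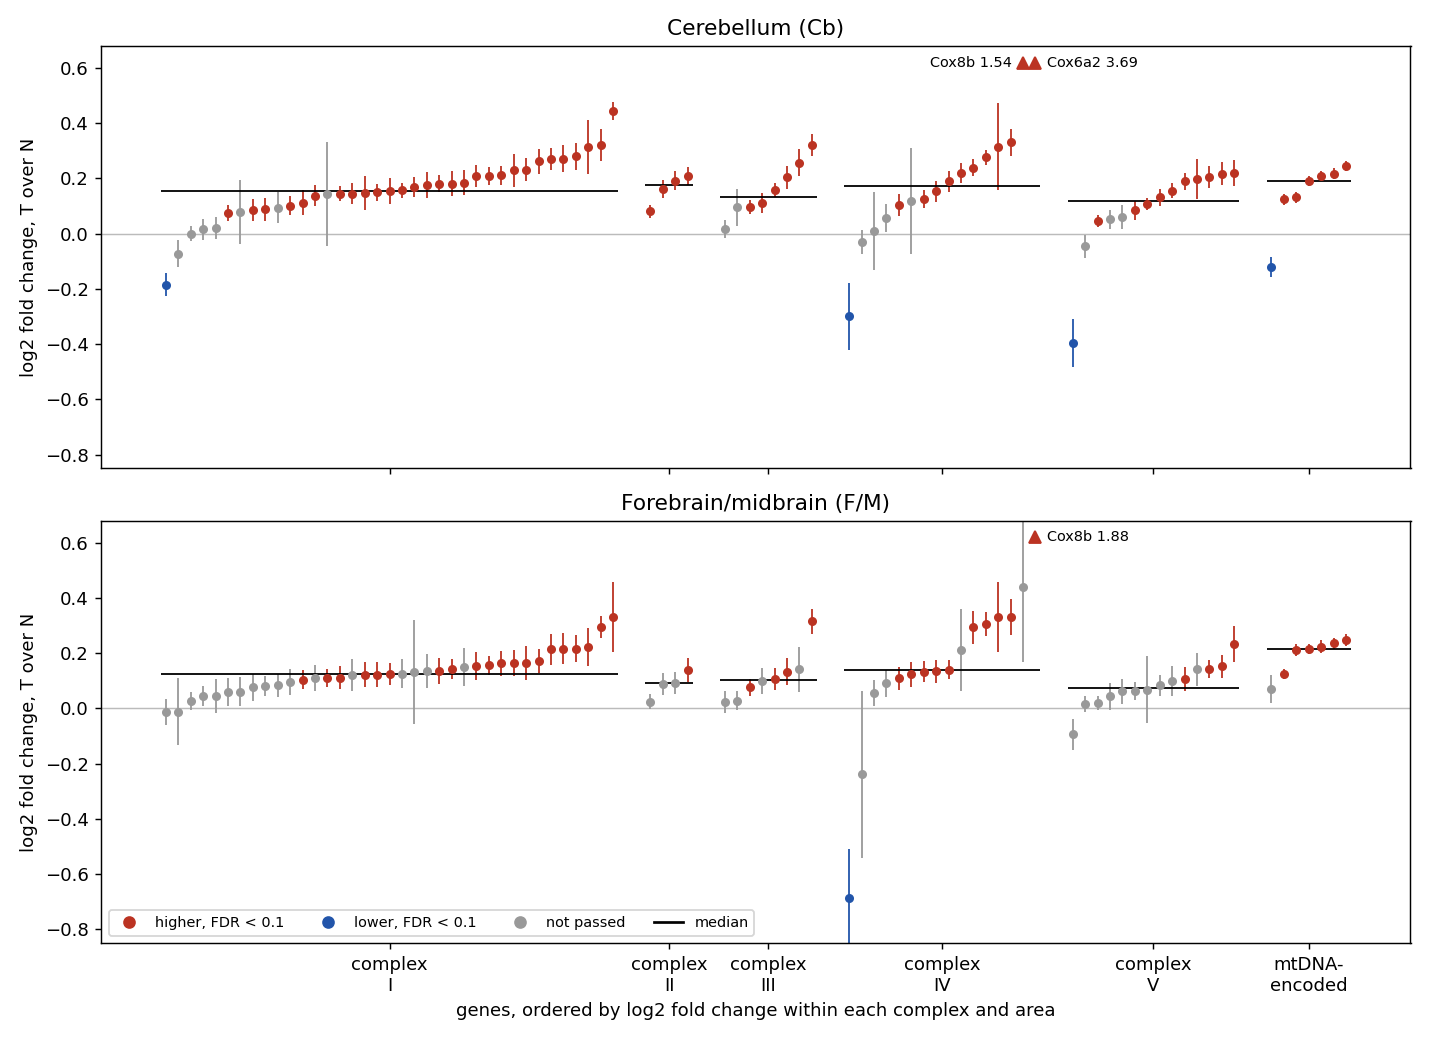
Fitted log2 fold change of T over N with its standard error for each of the 86 genes in Cb (top) and F/M (bottom), grouped by complex and ordered by value within each group. Horizontal lines are medians, and triangles mark values above the axis, which are printed beside them. Most points lie between 0 and 0.4, with 66 red (higher) points in Cb and 45 in F/M.

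The F/M count depended more on single libraries and on the processing than the Cb count. Within F/M-N, the median nuclear-encoded gene of replicate 3 lay 0.06 above the group mean on the log2 scale, above F/M-T replicate 2 at 0.03. F/M-T replicates 1 and 3 were at 0.11 and 0.08. In Cb the T libraries lay between 0.14 and 0.15 and the N libraries between −0.03 and 0.04. The number of genes higher in F/M was 29 without F/M-N replicate 1 and 26 without F/M-T replicate 1, against 45 with all libraries, whereas in Cb it stayed between 58 and 66. With offsets for GC content and length, 21 genes were higher and 3 lower in F/M, and the median of the nuclear-encoded genes was 0.0445, against 0.122 without them. CPM levels, and the overlaps of libraries judged on them, are scaled over all 12 libraries. In F/M the T over N ratio of CPM is 97.35% of the fitted fold, which is scaled within the area.

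Summed CPM was higher in every T than in every N library of Cb. The 79 nuclear-encoded genes together were at 8060, 8108 and 8443 CPM in Cb-N and at 8880, 9006 and 8968 CPM in Cb-T. In F/M they were at 7872, 7587 and 8179 CPM in N and at 8389, 7991 and 8145 CPM in T, and these ranges overlap. The 7 mtDNA-encoded genes reached 28553 to 29186 CPM in the Cb-N libraries, against 32794 to 33156 CPM in the Cb-T libraries, and 31175 to 31677 in F/M-N and 35159 to 35333 in F/M-T. The mtDNA sums did not overlap in either area.

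**Figure D2:**
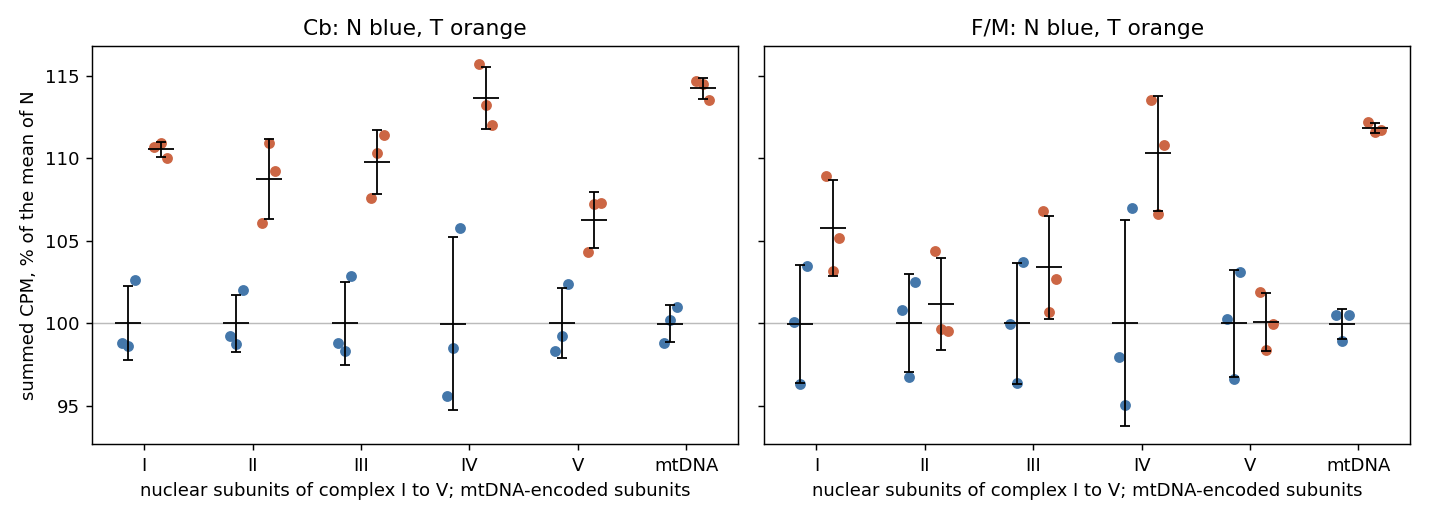
Summed CPM of the nuclear-encoded subunits of each complex and of the mtDNA-encoded subunits, as a percentage of the mean of N in the same area. Points are libraries, and bars are the mean and SD of 3. In Cb, T lies above N in all 6 sets. In F/M only the mtDNA set, at 111.6% to 112.2% in T, has no overlap.

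Complex I, the NADH dehydrogenase, had 37 nuclear-encoded genes, of which 29 were higher and 1 lower in Cb (median 0.16), and 20 were higher and 0 lower in F/M (median 0.12). Its largest increase among genes without overlap was that of *Ndufb9* (chr15:58933756-58939488, plus strand), an accessory subunit of the membrane arm. *Ndufb9* was at 85.3, 86.1 and 85.7 CPM in Cb-N and at 121, 115 and 114 CPM in Cb-T. The change was 0.44 ± 0.03 on the log2 scale (± SE, FDR 3.6e-15). The F/M values were 112, 109 and 120 CPM in N and 141, 132 and 135 CPM in T (0.29 ± 0.04, FDR 2e-05). The groups did not overlap in either area. Of its 50-nucleotide transcript windows, 15.6% also occur in another annotated gene, so its counts are uncertain. In F/M, *Ndufb4* had a larger value with overlapping libraries (0.33 ± 0.13, FDR 0.072), and 18.3% of its windows are shared. The level of *Ndufb9* in Cb-N was lower than in F/M-N, and the T libraries of Cb reached the level of F/M-N.

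The nuclear-encoded core subunits of complex I, most of which hold its flavin or iron-sulfur clusters, were less uniform. *Ndufv2* rose in both areas (0.18 ± 0.03 in Cb, 0.16 ± 0.03 in F/M). *Ndufs8* (0.23) and *Ndufv1* (0.07) passed the test only in Cb, with 0.06 and 0.08 in F/M, and with GC content and length adjusted for *Ndufv1* in Cb was at −0.00257 and did not pass. *Ndufs1*, the largest core subunit, was at 195, 194 and 194 CPM in Cb-N and at 189, 201 and 194 CPM in Cb-T. Its log2 fold changes were 0.00 ± 0.03 there and 0.03 ± 0.03 in F/M. *Ndufs7* (0.02 and 0.10) and *Ndufs3* (−0.07 and 0.13) did not pass in either area. Of the *Ndufs3* windows 16.1% are shared, so its counts are uncertain too.

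*Ndufb2*, a small accessory subunit of the membrane arm, was the lone nuclear-encoded complex I gene that fell in Cb. It was at 56.0, 52.6 and 56.5 CPM in Cb-N and at 50.2, 48.0 and 47.1 CPM in Cb-T (−0.18 ± 0.04, FDR 0.00032). In F/M its values overlapped, at 34.9, 33.2 and 33.8 CPM in N and 34.6, 32.6 and 36.2 CPM in T (0.06 ± 0.05). *Ndufa4*, now often assigned to complex IV, rose in both areas (0.16 and 0.14), while its paralog *Ndufa4l2*, at 1.68 to 2.12 CPM in Cb, had 0.14 ± 0.19 and 0.13 ± 0.19 and did not pass. *Ndufc2* (chr7:97400003-97407802), a membrane arm subunit, is the single member within 10 Mb of *Tpp1*, 8.34 Mb away on chromosome 7. It was higher in both areas (0.09 ± 0.04, FDR 0.065, and 0.17 ± 0.05, FDR 0.015), with libraries of N and T overlapping.

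Complex II, succinate dehydrogenase, had 4 of 4 genes higher in Cb and 1 of 4 in F/M. The flavoprotein *Sdha* was at 476, 480 and 488 CPM in Cb-N and at 499, 520 and 508 CPM in Cb-T (0.08 ± 0.02), and the iron-sulfur subunit *Sdhb* at 93.7, 88.9 and 96.5 against 106, 111 and 105 CPM (0.21 ± 0.03). The membrane anchors *Sdhc* and *Sdhd* rose by 0.19 and 0.16. In F/M the values were 0.02, 0.09, 0.14 and 0.09 in the order of subunits A to D, and only *Sdhc* passed (FDR 0.028).

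Complex III, the cytochrome bc1 complex, had 6 of 8 nuclear-encoded genes higher in Cb and 4 of 8 in F/M. The small subunit *Uqcr10* was at 51.9, 52.1 and 53.3 CPM in Cb-N and at 65.6, 63.1 and 67.9 CPM in Cb-T (0.32 ± 0.04, FDR 5e-09). Its F/M values were 55.4, 53.4 and 57.0 against 61.2, 54.6 and 57.3 CPM, which overlap (0.10 ± 0.05, FDR 0.14). *Uqcrq*, another small subunit, was at 58.5, 56.0 and 63.6 CPM in F/M-N and at 74.8, 69.6 and 71.6 CPM in F/M-T (0.32 ± 0.05), and rose in Cb as well (0.20 ± 0.04). *Uqcrfs1*, the Rieske iron-sulfur protein, had 0.02 ± 0.03 and 0.03 ± 0.04 and did not pass, but with GC content and length adjusted for it passed as lower in both areas (−0.0697 and −0.0827). The core proteins *Uqcrc1* (0.16 and 0.02) and *Uqcrc2* (0.10 and 0.08) passed in Cb, and *Uqcrc2* also in F/M (FDR 0.089).

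Complex V, the ATP synthase, had the lowest median, with 10 of 14 genes higher and 1 lower in Cb (median 0.12) and 4 of 14 higher and 0 lower in F/M (median 0.08). Its alpha and beta subunits had the highest CPM per kilobase of exon of the nuclear-encoded members in Cb-N. *Atp5b*, the catalytic beta subunit, was at 1219, 1232 and 1275 CPM in Cb-N and at 1250, 1301 and 1297 CPM in Cb-T (0.05 ± 0.02, FDR 0.062). With GC content and length adjusted for, this became −0.03 and did not pass. The F/M change was 0.02 ± 0.03 (FDR 0.74). The alpha subunit *Atp5a1* rose in Cb (0.11 ± 0.02) and had 0.02 ± 0.03 in F/M, and the gamma subunit *Atp5c1* rose in both (0.16 and 0.14). The epsilon subunit *Atp5e* had the largest increase in Cb among genes without overlap (0.22 ± 0.04). *Atp5s* had it in F/M (0.23 ± 0.06), although this gene and *Atp5sl* match the symbol rule without being structural subunits.

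*Atp5l*, the membrane subunit g, went the other way in Cb. It was at 11.7, 13.5 and 12.6 CPM in Cb-N and at 10.4, 9.94 and 8.27 CPM in Cb-T (−0.40 ± 0.09, FDR 0.00021), with no overlap. The F/M libraries had 6.40, 4.81 and 5.61 against 5.34, 6.36 and 5.46 CPM (0.07 ± 0.12, FDR 0.74). Windows shared with 284 other genes make up 7.63% of its transcripts, and their part in the result was not tested.

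Complex IV, cytochrome c oxidase, had 11 of 16 nuclear-encoded genes higher and 1 lower in Cb (median 0.17), and 10 higher and 1 lower in F/M (median 0.14). *Cox4i1*, the main regulatory subunit 4, was at 318, 316 and 342 CPM in Cb-N and at 405, 389 and 388 CPM in Cb-T (0.28 ± 0.03, FDR 8.8e-12). F/M levels were 336, 317 and 350 against 371, 346 and 359 CPM (0.14 ± 0.04, FDR 0.0076). *Cox6a1*, whose promoter is printed above, was at 122, 128 and 137 CPM in Cb-N and at 161, 146 and 143 CPM in Cb-T (0.22 ± 0.04). In F/M it was at 144, 144 and 161 against 189, 171 and 181 CPM (0.31 ± 0.04, FDR 3.7e-05), again with no overlap. *Cox7a2l*, known as a supercomplex factor, rose in Cb (0.33 ± 0.05) and had 0.09 ± 0.05 in F/M. Shared windows make up 9.16% of *Cox6a1* and 13.8% of *Cox7a2l* transcripts, so their counts are uncertain.

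*Cox8a* and *Cox5b*, a small transmembrane subunit and a zinc-binding subunit, rose in F/M and did not pass in Cb. *Cox8a* was at 129, 134 and 169 CPM in F/M-N and at 175, 173 and 181 CPM in F/M-T (0.33 ± 0.06, FDR 0.001). In Cb it was at 115, 126 and 141 against 131, 128 and 114 CPM (−0.03 ± 0.04). *Cox5b* had 0.29 ± 0.06 in F/M and 0.06 ± 0.05 in Cb. In the N groups of both areas replicate 3 had the highest value of each gene. Shared windows make up 11.9% of *Cox5b* transcripts, which leaves its counts uncertain.

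The isoforms of complex IV known from muscle or testis were at low levels and held all the DEG. *Cox6a2* (chr7:128205435-128206387, minus strand), the heart and muscle form of subunit 6A, had 1 count in each Cb-N library, below the 3-count limit, and 0.799, 0.693 and 0.457 CPM in Cb-T. The sums were 3 and 47 counts, a ratio of 14.3 with a 95% counting interval of 4.61 to 72.0. The fitted log2 fold change of 3.69 ± 0.60 (FDR 1.3e-06) depends on the prior count of the fit. *Cox6a2* passed the filter on low counts in Cb through Cb-T alone, so the direction was fixed by the filter. In F/M, *Cox6a2* was at 4.44, 4.36 and 3.91 CPM in N and at 5.78, 4.5 and 5.29 CPM in T (0.33 ± 0.13, FDR 0.072). Every Cb-T library was still below every F/M-N library.

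Levels of tissue markers in Cb are given beside *Cox6a2*, against 29.8% higher and 27.9% lower of all genes. Summed Hox genes of hindbrain and spinal cord were at 0.37 to 0.59 CPM in Cb-N and at 14.3 to 14.9 CPM in Cb-T. Of the 15 genes, 10 passed the filter on low counts, and they passed it through Cb-T alone, so their direction was fixed by the filter. Of 15 muscle markers 7 were tested, of which 2 were higher (28.6%) and 1 was lower (14.3%), and their sum went from 67.8 to 71.7 CPM in Cb-N to 50.9 to 52.3 CPM in Cb-T, most of it *Ryr1*. The higher ones were *Tnnt1*, at 0.0441 to 0.365 CPM in Cb-N and 1.33 to 1.68 CPM in Cb-T (2.74 ± 0.36, FDR 1.56e-08), which also passed the filter through Cb-T alone, and *Myh7* (0.64 ± 0.26, FDR 0.036). *Acta1* and *Mylpf* were at 0.411 to 1.47 CPM in every Cb library and did not pass. Markers of large projection and fast-spiking neurons included 7 higher (50%) and 4 lower (28.6%) of 14 tested, of which *Chat* passed the filter through Cb-T alone. In F/M, 3 of 15 were higher (20%) and 8 lower (53.3%), and of 9 muscle markers 0 were higher and 2 lower (22.2%). Their part in the result was not tested.

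*Cox8b* (chr7:140898945-140900446, minus strand), the muscle form of subunit 8, was at 0.221, 0.456 and 0.462 CPM in Cb-N and at 0.841, 1.10 and 1.37 CPM in Cb-T (1.54 ± 0.34, FDR 0.00016). F/M libraries were at 0.174, 0.225 and 0.255 against 1.01, 0.785 and 0.597 CPM (1.88 ± 0.39, FDR 0.0015). In F/M it passed the filter through F/M-T alone, which fixed the direction there. In Cb, N replicate 1, at 0.221 CPM, lay below the filter's minimum of 10 counts, so Cb-N alone would not have passed. Cb-T carried *Cox8b* into that test, which limits the Cb call as well. The groups were separate in both areas, on 25 and 80 counts in Cb and 15 and 56 in F/M. *Cox6b2* (chr7:4751792-4753094, minus strand), the testis form of subunit 6B, fell in both areas. It was at 5.73, 5.34 and 5.04 CPM in Cb-N against 4.29, 4.16 and 4.66 CPM in Cb-T (−0.30 ± 0.12, FDR 0.035). In F/M it was at 2.83, 2.65 and 2.34 against 1.71, 1.45 and 1.58 CPM (−0.68 ± 0.18, FDR 0.0087). Its broadly expressed counterpart *Cox6b1* rose in Cb (0.24 ± 0.03) and in F/M (0.13 ± 0.04, FDR 0.018), but with GC content and length adjusted for the F/M value was −0.00345 and did not pass.

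Of the other pairs, *Cox7a1*, the muscle form of subunit 7A, passed the test in Cb (0.31 ± 0.16, FDR 0.093) and had 0.44 ± 0.27 (FDR 0.28) in F/M. Its counterpart *Cox7a2* had 0.15 ± 0.04 and 0.06 ± 0.05. *Cox4i2*, the form of subunit 4 known from lung, had 0.12 ± 0.19 and −0.24 ± 0.30, and *Cox7b* had 0.13 ± 0.03 and 0.11 ± 0.04, of which the F/M value was −0.0248 and did not pass with GC content and length adjusted for. Chromosome 7, which carries *Tpp1*, holds 9 members at distances from 8.34 to 102 Mb from it: *Cox6a2*, *Cox8b*, *Cox6b2*, *Cox7a1*, *Cox6b1*, *Ndufc2*, *Uqcrc2*, *Ndufa3* and *Atp5sl*, of which *Atp5sl* passed in neither area.

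**Figure D3:**
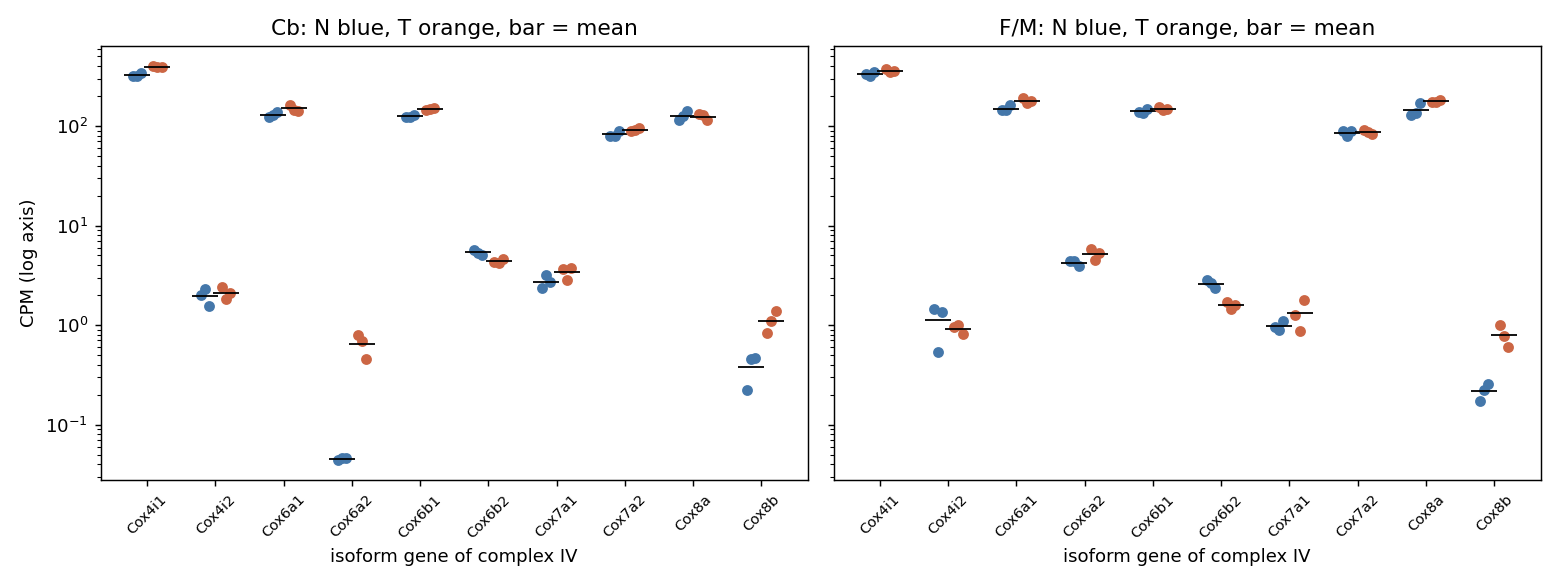
CPM on a log axis of 10 complex IV isoform genes in each library of Cb and F/M, with N in blue, T in orange and bars at group means. The broadly expressed isoforms lie near or above 80 CPM, and the others below 6 CPM. *Cox6a2* in Cb lies at 0.04 to 0.05 CPM in N, and its T libraries lie between 0.457 and 0.799 CPM.

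Of the 7 mtDNA-encoded genes, 6 rose in both areas with no overlap between T and N. They lie on the strand that carries most mitochondrial genes and are cut from a common long precursor. *mt-Nd1*, a proton-pumping complex I subunit, was at 4643, 4785 and 4807 CPM in Cb-N and at 5585, 5670 and 5625 CPM in Cb-T (0.25 ± 0.02, FDR 3.6e-15). In F/M it was at 5283, 5118 and 5231 against 6101, 5915 and 6040 CPM (0.25 ± 0.02, FDR 4.1e-08). *mt-Co1*, the catalytic subunit of complex IV, was at 7248, 7263 and 7316 against 8400, 8434 and 8379 CPM in Cb (0.21 ± 0.02), and at 8054, 7838 and 8046 against 8574, 8487 and 8343 CPM in F/M (0.13 ± 0.02). These increases were several times their standard errors. *mt-Cytb*, the mtDNA-encoded part of complex III, had 0.19 and 0.22, *mt-Nd2* 0.22 and 0.24, *mt-Nd4* 0.13 and 0.22, and *mt-Nd5* 0.12 and 0.21, in Cb and F/M.

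*mt-Nd6*, encoded on the other strand of mtDNA, did not follow them. It was at 89.7, 91.9 and 91.6 CPM in Cb-N and at 88.2, 82.2 and 80.9 CPM in Cb-T (−0.12 ± 0.04, FDR 0.0043). In F/M it was at 122, 112 and 104 against 115, 108 and 122 CPM (0.07 ± 0.05, FDR 0.35). The fall in Cb turned to an increase of 0.10 when GC content and length were adjusted for. Its annotation (chrM:13552-14070, minus strand) overlaps the end of *mt-Nd5* on the plus strand, and how strand was used in counting is not given in the sources used here. The ribosomal RNAs of mitochondria, from the start of the same precursor, were level: *mt-Rnr1* had 0.00 ± 0.02 and −0.03 ± 0.03, and *mt-Rnr2* had 0.01 ± 0.02 and 0.02 ± 0.02.

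**Figure D4:**
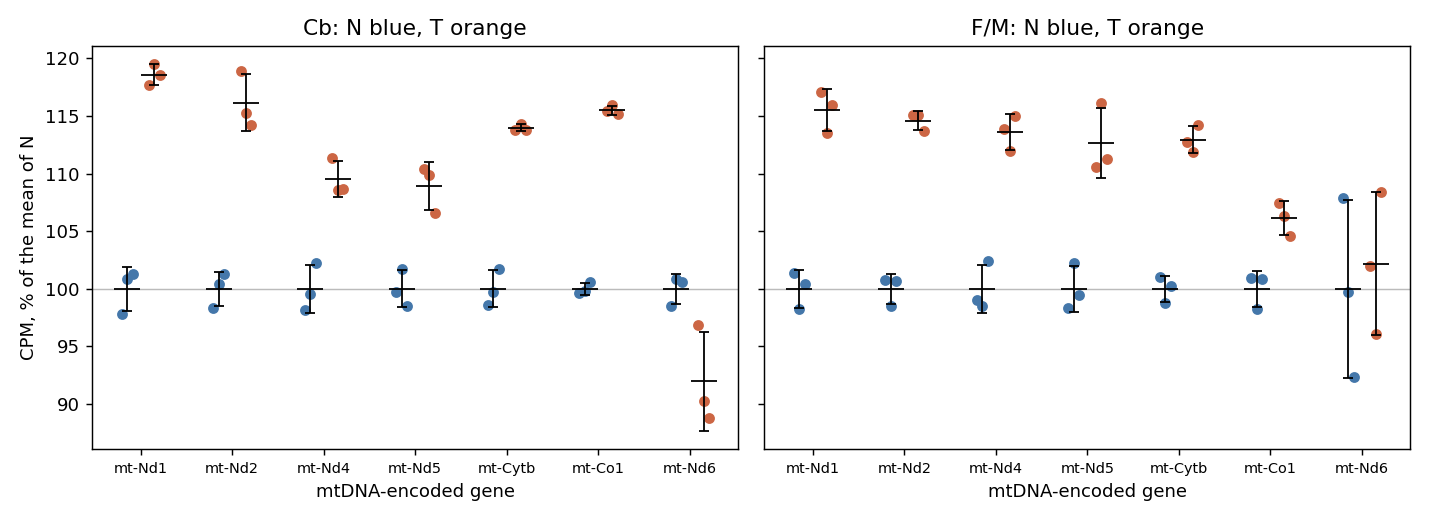
CPM of the 7 mtDNA-encoded genes in each library as a percentage of the mean of N in the same area. Points are libraries, N blue and T orange, with the mean and SD of 3. For 6 genes T lies above N in both areas, and *mt-Nd6* lies below N in Cb and overlaps it in F/M.

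Per kilobase of exon, 6 of the 7 mtDNA-encoded mRNAs were above every nuclear-encoded member in Cb-N, and *mt-Nd6* was not. They ranged from 176 CPM per kilobase for *mt-Nd6* to 6038 for *mt-Cytb*, and the highest nuclear-encoded gene, *Atp5a1*, was at 307. The missing mtDNA genes have near-identical nuclear copies on chromosome 1 (minus strand, between 24611535 and 24616197), which are annotated as genes. Of the 50-nucleotide windows of *mt-Co2*, 100% occur in another annotated gene, as do 99.9% for *mt-Co3*, 99.5% for *mt-Atp6*, 98.8% for *mt-Nd4l* and 98.0% for *mt-Nd3*, but 0% for *mt-Atp8*. *mt-Nd4* (62.2%) and *mt-Co1* (51.1%) are partly shared, so their levels are uncertain, while their T and N libraries were counted alike. The first 50 bases of *mt-Co3* (chrM:8607-8656) are shown because they are identical to chr1:24613922-24613971 on the minus strand, in *Gm28437*.
mt-Co3: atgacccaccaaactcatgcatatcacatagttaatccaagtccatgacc

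The members are short genes, and the increases were larger for shorter ones. The median exon length of the 79 nuclear-encoded genes was 1550 nucleotides, against 4124.5 over all genes tested. Over the 69 of them at 10 CPM or more in both control groups, the log2 fold change had a Pearson r with log2 length of −0.37 in Cb and −0.40 in F/M, as a description across genes of the same libraries. With offsets for GC content and length, 49 genes were higher and 6 lower in Cb, and 21 were higher and 3 lower in F/M. Among the genes named here, *Atp5b*, *Ndufv1* and *mt-Nd6* in Cb and *Cox6b1* and *Cox7b* in F/M had passed the test and changed sign with these offsets. The median of nuclear-encoded genes was then 0.09 in Cb and 0.04 in F/M, from 0.155 and 0.122 without offsets.

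**Figure D5:**
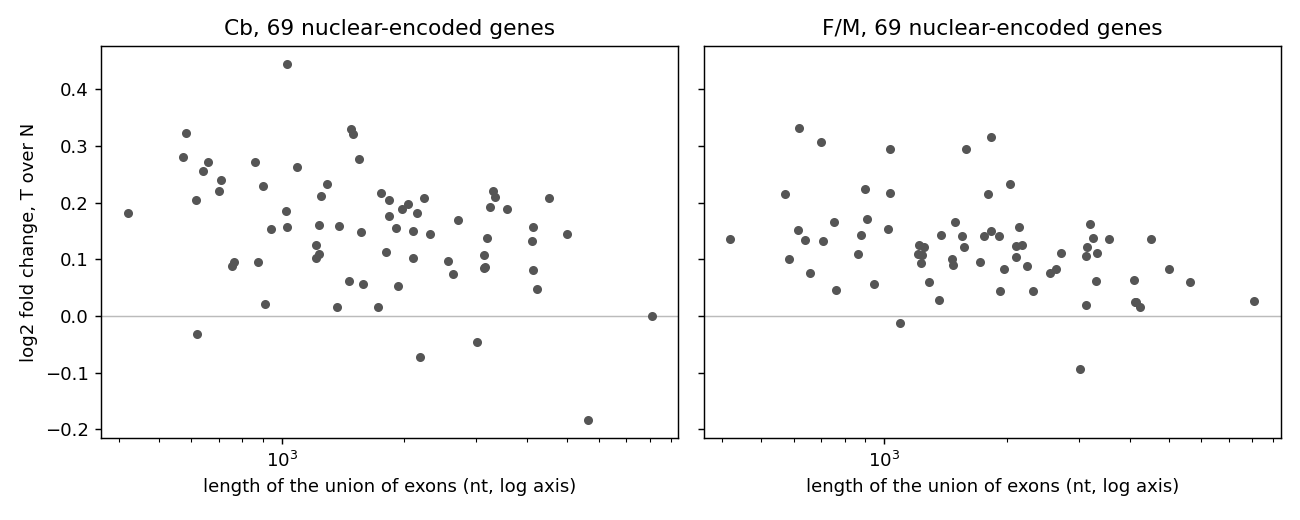
Fitted log2 fold change of T over N against exon length (log axis) for 69 nuclear-encoded genes at 10 CPM or more in both control groups. Each point is a gene. Most points lie above 0 in both areas, and the highest lie at shorter lengths.

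Between the areas, the difference of the fold changes was tested over all 12 libraries. At FDR below 0.1 alone, 18 genes had a higher and 7 a lower log2 fold change in Cb than in F/M, against 17.4% and 10.1% of 17482 genes, so these counts were near the background. The split was not stable: it was 5 and 14 without Cb-T replicate 1, 6 and 9 without Cb-T replicate 3, 11 and 7 without F/M-N replicate 3, and 7 and 7 with DESeq2. In the other direction it was 25 and 5 with GC and length offsets and 24 and 4 without F/M-N replicate 2. With at least a 1.5-fold difference, 1 gene was higher, *Cox6a2* (3.38 ± 0.59), and 0 were lower, against 6.41% and 1.2% of all genes. The largest differences at FDR below 0.1 were otherwise *Ndufa11*, a membrane arm subunit (0.29 ± 0.06), *Cox7a2l* (0.26 ± 0.07) and *Uqcr10* (0.24 ± 0.06) on the higher side, and *Atp5l* (−0.44 ± 0.15), *Cox8a* (−0.34 ± 0.09) and *Ndufb2* (−0.23 ± 0.07) on the lower side. These names were chosen after their values were seen. Across the 86 genes, the fold changes of the areas had a Pearson r of 0.437 and a Spearman rho of 0.319, which fell to 0.263 and 0.269 over the 69 genes above.

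Without disease few members differed between the areas by at least 1.5-fold, while most passed at FDR alone. With at least a 1.5-fold difference, 6 genes were higher and 1 lower in Cb-N than in F/M-N, against 19.2% and 23.2% of all genes. The higher genes were *Cox7a1* (1.47 ± 0.23), *Atp5l* (1.17 ± 0.11), *Cox6b2* (1.05 ± 0.13), *Cox4i2* (0.81 ± 0.25), *Ndufb2* (0.71 ± 0.05) and *Cox7c* (0.65 ± 0.15, with 22.1% of windows shared), and the lower one was *Cox6a2*, with 3 against 291 counts. At FDR alone, 35 were higher (40.7%) and 24 lower (27.9%), against 39.8% in each direction, so the share higher was near that of all genes. Of the mtDNA-encoded genes 6 were lower in Cb-N, with log2 differences of −0.30 to −0.07. With GC content and length adjusted for, 37 members were higher and 35 lower, and the median of the mtDNA-encoded genes was −0.327, against −0.123.

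The lists for the mitochondrial ribosome, assembly factors, electron carriers and the citric acid cycle also held more higher than lower calls, to be read against the 29.8% higher and 27.9% lower of all genes in Cb and the 12.8% and 14.4% in F/M. Of 77 mitochondrial ribosome genes, 32 were higher (41.6%) and 0 lower in Cb (median 0.08), and 16 (20.8%) and 0 in F/M (median 0.08). Of 52 assembly factors, 17 were higher (32.7%) and 1 lower in Cb and 7 (13.5%) and 0 in F/M, so the shares higher were near those of all genes. Of 13 electron carrier and nucleotide exchange genes, 9 and 0 in Cb and 5 and 0 in F/M passed, among them the ADP/ATP carrier *Slc25a4* (0.16 ± 0.02 in Cb). Of 13 citric acid cycle genes, 7 were higher and 1 lower in Cb and 6 and 1 in F/M, and *Suclg2*, a subunit of succinyl-CoA ligase, had the largest value (0.70 ± 0.08 in Cb).

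Of 23 genes of mitochondrial biogenesis and mtDNA expression, 3 were higher (13%) and 10 lower (43.5%) in Cb. In F/M, 3 were higher (13%) and 5 lower (21.7%), on few genes and with the share higher near that of all genes. The coactivator *Ppargc1b* fell in Cb (−0.53 ± 0.06), as did *Nrf1* (−0.25 ± 0.06) and *Esrra* (−0.13 ± 0.04), while the mtDNA-packaging factor *Tfam* rose in both areas (0.09 ± 0.04 and 0.13 ± 0.05). *Ppargc1a* had 0.01 ± 0.03 in Cb and fell in F/M (−0.13 ± 0.04). Of 29 glycolysis and lactate genes, 15 were higher (51.7%) and 4 lower (13.8%) in Cb, and in F/M 4 (13.8%) and 5 (17.2%), near the shares of all genes. Of 17 oxidative stress and uncoupling genes, 12 and 1 in Cb and 8 and 1 in F/M passed.

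Cell type markers are given beside these changes, to be read against 29.8% higher and 27.9% lower of all genes in Cb and 12.8% and 14.4% in F/M. In Cb, summed microglia markers went from 199 to 213 CPM in N to 781 to 803 CPM in T, with 15 of 15 higher, and in F/M from 562 to 583 CPM to 915 to 941 CPM, with 13 of 15 higher. Astrocyte markers were higher for 13 of 15 in Cb, where 1 was lower, and 12 of 15 in F/M. Oligodendrocyte markers were higher for 14 of 15 in Cb, and in F/M for 2 (13.3%), with 3 lower (20%), near the shares of all genes. Granule cell markers fell for 12 of 15 in Cb, where their sum went from 8913 to 9010 CPM to 7533 to 7633 CPM, and Purkinje cell markers for 15 of 15. Of 20 neuron markers, 5 were higher (25%) and 11 lower (55%) in Cb, and 1 (5%) and 8 (40%) in F/M. At least 1.5-fold changes among them in Cb numbered 2, both higher. *Nrgn* was at 3.04 to 3.79 CPM in Cb-N and at 36.8 to 44.5 CPM in Cb-T. *Slc17a6* was at 19.99 to 22.4 CPM in Cb-N and at 101.8 to 103.1 CPM in Cb-T. Endothelial markers were higher for 9 (60%) and lower for 2 (13.3%) of 15 in Cb, and 4 (26.7%) and 0 in F/M. Choroid plexus markers were higher for 4 and lower for 4 of 10 in Cb (40% each), and for 3 (30%) and 1 (10%) in F/M. Olfactory bulb markers were lower for 7 of 10 in F/M, where 4 of these (*S100a5*, *Omp*, *Tbx21* and *Ms4a15*) passed the filter on low counts through F/M-N alone, which fixed their direction, and the sum was 59.2 to 60.2 CPM in N and 31.3 to 33.2 CPM in T. In Cb, 2 were higher (33.3%) and 3 lower (50%) of 6, and the sum was 114.3 to 121.5 CPM in N and 69.6 to 71.3 CPM in T. Most of that fall was *Eomes*, at 51.9 to 53.9 CPM in Cb-N and 10.9 to 11.9 CPM in Cb-T. *Cdhr1* went the other way, from 0.309 to 0.508 CPM in Cb-N to 2.19 to 2.61 CPM in Cb-T. In F/M, granule cell markers were lower for 4 of 15 (26.7%), and Purkinje cell markers were higher for 3 (23.1%) and lower for 5 (38.5%) of 13. The part of a changed cell composition in the subunit results was not tested.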

How the data were processed

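Per the labels, poly(A) RNA was sequenced from Cb and F/M of 3 *Tpp1*-/- and 3 wild-type males, as single-end reads with a strand-marking kit. The authors mapped reads to GRCm38 with STAR and deposited raw read counts per gene symbol, made with featureCounts 1.26.1 per the submitters' processing notes. The annotation release, the strand setting and the handling of reads with several matches are not given in the sources used here. The submitters also name Cufflinks 2.2.1, edgeR 3.18.1 and limma 3.32.10.

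Groups were taken from the sample titles and files from the deposited sample assignment, although the deposited files are named with other letters (T for N libraries, M for T libraries). Counts were tested with the edgeR 4.0.16 quasi-likelihood test in R 4.3.3, after filterByExpr (count minimum 10, total 15) and TMM scaling, with Benjamini-Hochberg adjustment over all genes tested. T was compared with N within each area (6 libraries), and the difference between areas and Cb-N against F/M-N were fitted over 12 libraries. Calls used FDR below 0.1, and DEG, area differences and the interaction also at least 1.5-fold. SE is the log2 fold change divided by the square root of F. Levels are CPM with TMM factors over 12 libraries. Counting intervals (95%) and the limit of 3 counts cover counting error only. Replicates are separate mice per the study. Replicate pairs differed beyond sampling noise (chi-square per degree of freedom 1.28 to 3.59). The scripts were tested on simulated data.

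Members, gene lists and tests were chosen with earlier results of these data known. Named genes were the mtDNA-encoded genes, core subunits, complex IV and *Ndufa4* isoform groups, DEG, genes with an interaction, the largest non-overlapping change of each complex in each direction, and members within 10 Mb of *Tpp1*. The values of 1 core subunit are not reported here. Coordinates and lengths come from GENCODE vM21 (GRCm38). Same-numbered libraries were not paired: correlations of their deviations across genes ranged from −0.03 to 0.14, and the labels do not say that Cb and F/M of 1 number come from 1 mouse. Alternatives were other scalings (RLE, upper-quartile, library totals, no mt genes), filters (none, mean count 50), DESeq2 1.42.0, limma-voom 3.58.1, a replicate block, a single fit, FDR 0.05, GC and length offsets and leaving out each library.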

Additional observations from a re-analysis of the deposited data

Results flagged for a closer look

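The change of *Cox6a2* with genotype differed between the brain areas: the log2 fold change in Cb minus that in F/M was 3.38 ± 0.59 (edgeR interaction, FDR 5.9e-05). It rests on 3 counts in all Cb-N libraries against 47 in Cb-T, and on 291 against 365 counts in F/M, so the fitted size depends on the prior count. All 3 Cb-T libraries were above all 3 Cb-N libraries, and the value lay between 3.16 and 3.53 with any single library left out, each time past the threshold.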

How the results depend on the processing

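The count of genes higher in T in Cb stayed between 49 and 71 under every alternative (58 to 66 with a library left out), and the count lower between 3 and 6 (3 to 4). In F/M the count higher, 45, was 21 with GC and length offsets, 30 with DESeq2, 34 in a single fit of 12 libraries and 59 with library totals, and 26 to 57 with a library left out. The F/M count lower, 1, was 0 at a mean count of at least 50, 2 in the single fit, 3 with GC and length offsets and 1 to 2 with a library left out. DEG numbered 0 in both areas at a mean count of at least 50, which removes the low-level isoforms from the test, 1 in F/M with DESeq2, and 2 to 3 in F/M with a library left out. Genes lower in Cb-N than in F/M-N numbered 2 with GC and length offsets, against 1. Apart from those named, the cause of these shifts was not tested. The median of the nuclear-encoded genes lay between 0.09 and 0.20 in Cb and between 0.04 and 0.15 in F/M. Among all called genes the share higher in F/M was 47%, and 32.4% in the single fit and 57.2% with library totals; in Cb it was 51.7%, and 61.3% with library totals. The interaction calls were 18 higher and 7 lower, and 12 and 9 with RLE factors, 9 and 9 at a mean count of at least 50, 25 and 5 with GC and length offsets and 21 and 9 with the replicate block.

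With the replicate number as a block, 65 genes were higher and 4 lower in Cb, and 59 and 1 in F/M. DEG numbered 2 in each area, 1 gene had an interaction, and 6 and 1 differed between the control areas. The numbers did not pair the libraries, so this fit is given only here.

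Signs turned for some genes. *Atp5b*, *Ndufv1* and *mt-Nd6* in Cb and *Cox6b1* and *Cox7b* in F/M had passed the test, and the others had not. With GC and length offsets the log2 fold changes in Cb were −0.0425 for *Cox5b*, −0.00521 for *Ndufs7*, −0.0294 for *Atp5b*, −0.0697 for *Uqcrfs1*, −0.00257 for *Ndufv1*, 0.0296 for *Cox8a* and 0.0975 for *mt-Nd6*. In F/M they were −0.00345 for *Cox6b1*, −0.0255 for *Sdhd*, −0.0697 for *Cox7a2*, −0.0152 for *Uqcr10*, −0.0827 for *Uqcrfs1*, −0.0187 for *Cox7a2l*, −0.0246 for *Ndufs8* and −0.0248 for *Cox7b*. In the single fit, *Ndufs1* in Cb was at −0.0127, and the values in F/M were −0.00592 for *Ndufs1*, −0.00849 for *Uqcrc1*, −0.0172 for *Atp5b*, −0.00488 for *Uqcrfs1*, −0.00819 for *Sdha* and −0.0129 for *Atp5a1*. *Ndufs1* in Cb was at −0.00802 with RLE factors and at −0.00804 with DESeq2, and *Cox8a* in Cb at 0.0112 with library totals. With a library left out, values in Cb ranged from −0.00632 to 0.0884 for *Cox5b*, −0.0163 to 0.0178 for *Ndufs1*, −0.0204 to 0.241 for *Cox4i2*, −0.0253 to 0.0465 for *Ndufs7*, −0.0117 to 0.0394 for *Uqcrfs1* and −0.104 to 0.0371 for *Cox8a*. In F/M they ranged from −0.0273 to 0.172 for *Atp5l*, −0.0151 to 0.0695 for *Uqcrc1* and −0.00784 to 0.0492 for *Atp5b*.

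Genes of a few counts at these totals, such as *Cox6a2* in Cb-N, have wide counting intervals, and 3 mice a group limit the precision of the rest.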
